A study of Mus musculus with 15 samples.

Results

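The Sprouty and Spred genes Spry1, Spry2, Spry4, Spred1, Spred2 and Spred3 are described here in mouse epiblast-like cells (EpiLCs) in which ERK signalling was switched on and then blocked. The members were chosen by name, as the rows of a raw count table whose Ensembl identifiers map to these 6 genes, out of 52636 identifiers in the table. All 6 were among the 13451 genes that passed the filter on low counts. The cells carried an inducible c-RAF kinase, a construct that activates MEK and then ERK when 4-hydroxytamoxifen (4OHT) is added. They belonged to 2 clones of the line CRAFR26, named clone 4 and clone 8, so every group below is a model of these clones only. Embryonic stem cells of the line were kept for 2 passages in a state the labels call RSC and then turned into EpiLCs for 48 h, in N2B27 medium with 12 ng/ml bFGF, 20 ng/ml Activin A and 1 µM XAV939.

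Every library came from cells exposed to 250 nM of the FGF receptor inhibitor PD17 for 2 h before induction, which lowers the signal that the bFGF in the medium would give. The group 0h had no 4OHT and 3 libraries, 1 of clone 4 and 2 of clone 8, after the submitters set aside 1 sample in quality control. The groups 2h and 4h had 250 nM 4OHT for 2 and 4 h, with 2 libraries of each clone. The group rev had 4 h of 4OHT and then 2 h of a MEK inhibitor, also with 2 libraries of each clone. The rev cells were therefore collected after 2 more hours of culture than the 4h cells, and the inhibitor and that added time cannot be told apart. Whether PD17 stayed on the cells during induction is not given in the sources used here. The labels do not say that libraries of 1 clone came from separate cultures, so the p-values measure the spread between these libraries, which may be technical.

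Sprouty and Spred proteins are inhibitors of receptor tyrosine kinase signalling, and their genes are themselves switched on by that signalling, which makes them a negative feedback on the RAS, RAF, MEK and ERK cascade. Both families end in a cysteine-rich Sprouty domain that directs the protein to membranes. Spred proteins also carry an EVH1 domain, through which they bring neurofibromin, a protein that turns RAS off, to the membrane. In the early embryo FGF and ERK move epiblast cells out of the naive state, and Spry4 is often measured as a target gene of this pathway.

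The genes lie on separate chromosomes in the GRCm38 build of the mouse genome (mm10), by the GENCODE M21 annotation. Spry1 (ENSMUSG00000037211) is at chr3:37639947-37644598 on the plus strand, Spry2 (ENSMUSG00000022114) at chr14:105891947-105896819 on the minus strand, and Spry4 (ENSMUSG00000024427) at chr18:38586247-38601415 on the minus strand. Spred1 (ENSMUSG00000027351) is at chr2:117121374-117182279 on the plus strand, Spred2 (ENSMUSG00000045671) at chr11:19924375-20024026 on the plus strand, and Spred3 (ENSMUSG00000037239) at chr7:29158829-29170411 on the minus strand. The Sprouty genes are compact, with 2 merged exons each, and the Spred genes have 7 or 8. Exons of Spry1 overlap the antisense gene Gm42922 by 710 bp and those of Spred3 overlap the antisense gene Ggn by 202 bp. Whether the counting used strand is not given, but Gm42922 had 0 or 1 counts and Ggn 0 to 16 counts per library.

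Spry4 was left out of the promoter search, so nothing is said here about sites in its promoter. Promoter windows of 300 bases, 250 before and 50 after the transcription start site, were taken from RefSeq (GRCm38.p6) for 5 of the 6 members. Each was searched on both strands for the ETS core CCGGAA, the AP-1 site TGACTCA, the CRE TGACGTCA, the EGR site GCGGGGGCG and the CArG box, which are the sites of transcription factor families through which ERK signalling acts. The ETS core is the site bound by factors such as ETV5 and ELK1. It was found in 14.9% of the 32851 windows in the table, AP-1 in 5.2%, CRE in 1.79%, EGR in 2.91% and the CArG box in 1.63%. Among the 5 members the search gave 1 match, an ETS core in Spry2 that begins at base 34 counted from the start site as 1. Spred1 and Spred3, which like Spry2 were called higher at 2 h, had no match. To set a fast member beside a slow one, 2 stretches before the start site are shown, from the member with a match, which had risen by 2 h (Spry2) and from one that was called higher at 4 h but not at 2 h (Spred2), with the 30 bases around the match, whose capitals mark the ETS core. They lie at chr14:105896820-105897069 (Spry2, minus strand), chr11:19924192-19924441 (Spred2, plus strand) and chr14:105896770-105896799 (the match, minus strand). The start sites are those of RefSeq, which for Spred1, Spred2 and Spred3 differ from the ends of the GENCODE genes given above, so that the last bases of the Spred2 stretch lie inside the GENCODE gene.

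Spry2 before the start site: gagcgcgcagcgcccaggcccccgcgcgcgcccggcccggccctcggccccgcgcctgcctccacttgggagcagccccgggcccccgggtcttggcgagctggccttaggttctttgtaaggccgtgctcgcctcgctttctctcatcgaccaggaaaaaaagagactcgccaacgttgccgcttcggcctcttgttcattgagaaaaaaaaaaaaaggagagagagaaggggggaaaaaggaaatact
Spred2 before the start site: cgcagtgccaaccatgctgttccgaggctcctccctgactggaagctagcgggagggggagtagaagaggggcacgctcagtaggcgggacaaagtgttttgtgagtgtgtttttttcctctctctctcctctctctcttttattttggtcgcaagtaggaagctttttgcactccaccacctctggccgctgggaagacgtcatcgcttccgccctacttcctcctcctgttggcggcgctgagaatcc
Spry2 around the match: gaggtcatctatcCCGGAAtccgggagggt

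The share of G and C in each window lay above the median of 52.7% over all windows, in Spred2 and Spred3 by little. It was 62.7% in Spry2, 57% in Spred2, 64.3% in Spry1, 72.3% in Spred1 and 55% in Spred3. A match is a run of letters and not a site shown to be bound, and no match says only that these letters are not in these windows.

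The 4h libraries stood apart from the others. They held 1552022 to 6658950 counts, against 8667880 to 13004556 in the 11 other libraries, and mitochondrial genes took 7.21 to 12.4% of their counts, against 2.67 to 6.98%. The 7 EpiLC and pluripotency markers, which include Pou5f1 and Otx2, were detected in every group, with summed levels of 820 to 911 CPM at 4h and 1100 to 1610 CPM elsewhere. They did not move as 1 set in 4h vs 0h. By edgeR's quasi-likelihood test 2 were higher, Otx2 among them (1.13 on the log2 scale), and 5 were lower, Pou5f1 among them (-0.77). The 7 naive pluripotency markers summed to 56.8 to 229 CPM at 4h and 29.5 to 38.2 CPM elsewhere, and the 4 neuroectoderm markers to 39.7 to 50.5 CPM at 4h and 2.97 to 12 CPM elsewhere. Fibroblast, trophoblast, primitive endoderm and mesoderm markers summed to at most 15.7 CPM in any library, and Prdm14 of the naive list, Mesp1, Elf5 and Neurog2 had at most 3 counts per library in at least 3 groups. By edgeR's quasi-likelihood test 6 of the 7 naive markers and 3 of the 3 neuroectoderm markers that passed the filter were higher in 4h vs 0h. The part of these differences in the results at 4h was not tested, and in bulk RNA fewer cells of a type and less RNA per cell cannot be told apart. The entry with the most counts took 16.1 to 37.5% of a library at 0h and 12.3 to 33.9% at 2h. At 4h it took 18.6 to 36.9%, and in rev 23.2 to 38%. The TMM factors of the 15 libraries ran from 0.6092 to 1.489, and total count scaling has no such factor. The part of this entry in the calls that changed with scaling was not tested. With total count scaling in place of TMM, the median gene shifted by -0.73 in 4h vs 0h, -0.57 in 4h vs 2h, 0.45 in rev vs 4h and -0.30 in rev vs 0h on the log2 scale, and the share of called genes that were higher went from 52 to 7.11%, from 50.6 to 9.09%, from 49.2 to 88% and from 58.2 to 31.9%. In rev vs 2h that share went from 60.1 to 47.9%. No member's called change reversed direction under that scaling, and the calls it ended are given beside each comparison. Of the differences between groups that were not called, it turned the sign of 4: Spry1 (-0.02) and Spred2 (-0.13) in 2h vs 0h, Spred1 in rev vs 4h (0.09) and Spred2 in rev vs 0h (-0.12). Leaving out any 1 of the 4h libraries left 6 members higher in 4h vs 0h, 5 called in 4h vs 2h and 4 or 5 lower in rev vs 4h.

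Before induction Spred2 led the family. Levels between genes were compared as CPM per kb of merged exon, where CPM is the count scaled to the size of its library after TMM normalization. At 0h Spred2 stood first with 7.14 CPM per kb, followed by Spry2 with 3.53 and Spred1 with 2.87. Spry1 followed with 1.22, Spred3 with 1.07, and Spry4 came last with 0.18 CPM per kb. Spry2 and Spred1 overlapped between libraries, and the other neighbours in the order did not. Spred2 alone made up 44.9 ± 4.75% (SD, n = 3) of the summed level of the 6 genes and Spry4 made up 1.14 ± 0.265%.

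After 2 h of induction Spry2 and Spry4 led instead. Spry2 had 25.6 CPM per kb and Spry4 19.2, with libraries that overlapped, and they made up 42.2 ± 1.82% and 30.5 ± 6.17% of the sum (SD, n = 4). Spred2 stood at 7.5, Spred1 at 4.73, Spred3 at 2.66 and Spry1 at 1.45 CPM per kb, each apart from the next. At 4h Spry2 (22 CPM per kb), Spry4 (14.8) and Spred2 (14.7) overlapped from one to the next, ahead of Spred1 with 8 CPM per kb. Spred3 with 4.19 and Spry1 with 2.83 CPM per kb came last at 4h and overlapped. In rev the order was led by Spred2 again, with 8.32 CPM per kb, above Spry2 with 6.7 and Spred1 with 6.43, which overlapped. Spry4 with 2.94 and Spred3 with 2.44 CPM per kb overlapped too, and Spry1 was last with 1.72.

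The summed level of the 6 genes was 16.0 ± 1.44 CPM per kb before induction (SD, n = 3), 61.1 ± 11.6 after 2 h, 66.6 ± 16.8 after 4 h and 28.5 ± 0.864 under the inhibitor (SD, n = 4 each). The sum was similar at 2h and 4h while its makeup moved, with Spred2 at 12.5% of it at 2h and 23.1% at 4h, and Spry4 at 30.5 and 21.2%. Every rev library, from 27.4 to 29.4 CPM per kb, lay above the 0h libraries, which ran from 14.5 to 17.4, and below those of 2h and 4h, of which the lowest was 49.

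**Figure D1:**
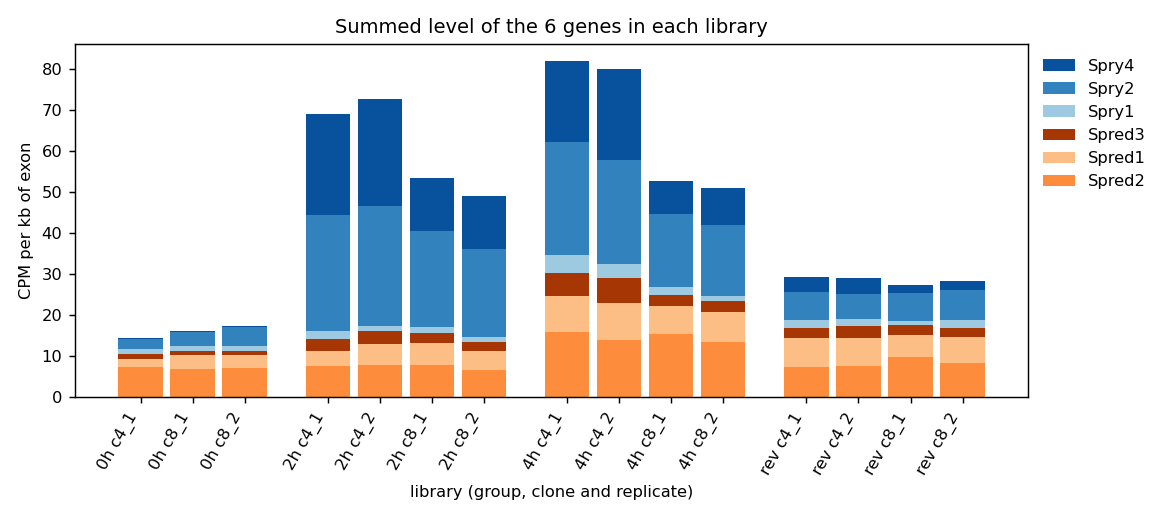
Summed level of the 6 genes in each of the 15 libraries, in CPM per kb of exon (vertical axis, from 0), with 1 bar per library (c4 and c8 are clone 4 and clone 8) and 1 colour per gene. The Spry2 and Spry4 segments are thin at 0h and widest at 2h and 4h, and the rev bars lie between 27.4 and 29.4 CPM per kb.

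Spry4 encodes a Sprouty protein that dampens the activation of RAS and RAF. Its level was 0.972, 0.869 and 0.727 CPM in the 0h libraries, from 6 to 18 counts each. It was 117 and 124 CPM at 2h in clone 4 and 61.7 and 60.9 CPM in clone 8. At 4h it was 94.1 and 105 CPM in clone 4 and 38.5 and 43.7 CPM in clone 8. In rev it was 17.4 and 18 CPM in clone 4 and 9.73 and 10.9 CPM in clone 8. The 4 groups did not overlap except 2h with 4h, and within each clone both 4h libraries lay below both 2h libraries. In the induced and reverted groups the clone 4 libraries were the higher ones.

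Spry2 encodes a Sprouty protein that binds the adaptor GRB2 and the ubiquitin ligase CBL. Its level was 5.07, 7.09 and 9.93 CPM at 0h, with the clone 4 library lowest. It was 59.2, 61.1, 48.8 and 44.8 CPM at 2h, where the first 2 values are clone 4 and the last 2 clone 8, as in the sentences that follow. At 4h the values were 57.4, 52.8, 37.3 and 36.2 CPM, and in rev 14.5, 12.6, 14 and 14.8 CPM. The 2h and 4h libraries overlapped, and both groups lay above rev, which lay above 0h.

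Spry1 encodes the Sprouty protein best known for limiting signalling from the receptor RET in the kidney. It was the lowest of the Sprouty genes once ERK was induced. Its level was 3.62, 3.54 and 3.51 CPM at 0h, 5.67, 3.36, 4.27 and 3.54 CPM at 2h, 12.8, 10.6, 5.69 and 3.77 CPM at 4h, and 5.39, 5.47, 3.24 and 5.91 CPM in rev. Only at 4h did all libraries lie above 0h, the lowest of them, at 3.77 CPM, by little. Its counts were 10 to 77 per library.

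Spred1 encodes the Spred protein whose loss in people causes Legius syndrome. Its level was 14.6, 22.7 and 21.1 CPM at 0h, again with clone 4 lowest, and 25.5, 34.2, 37.3 and 31.3 CPM at 2h. It was 60.5, 60.7, 45.8 and 50.1 CPM at 4h and 47.2, 46.9, 37.6 and 42.7 CPM in rev. The groups stepped up without overlap from 0h to 2h to 4h, and the rev libraries overlapped those of 4h and lay above those of 2h.

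Spred2, a widely expressed member, had much the same level at 0h and 2h. It had 33.7, 32.1 and 33.2 CPM at 0h and 35, 36.5, 35.8 and 31.3 CPM at 2h, which overlapped. All 4h libraries lay higher, at 73.3, 64.9, 71.5 and 62.6 CPM, and in rev the level was 34.6, 35.4, 45.1 and 38.5 CPM, between 0h and 4h with no overlap with either.

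Spred3, the Spred gene that lacks a functional KIT-binding domain, had 7.34, 6.62 and 6.06 CPM at 0h and 17.9, 19.9, 14.9 and 13.4 CPM at 2h. It had 34.8 and 37 CPM at 4h in clone 4, but 16.8 and 15.5 CPM in clone 8, within the range of the 2h libraries. In rev it had 15.4, 17, 14 and 14.3 CPM. At 4h the clones were thus far apart, and at 0h and in rev they were close.

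**Figure D2:**
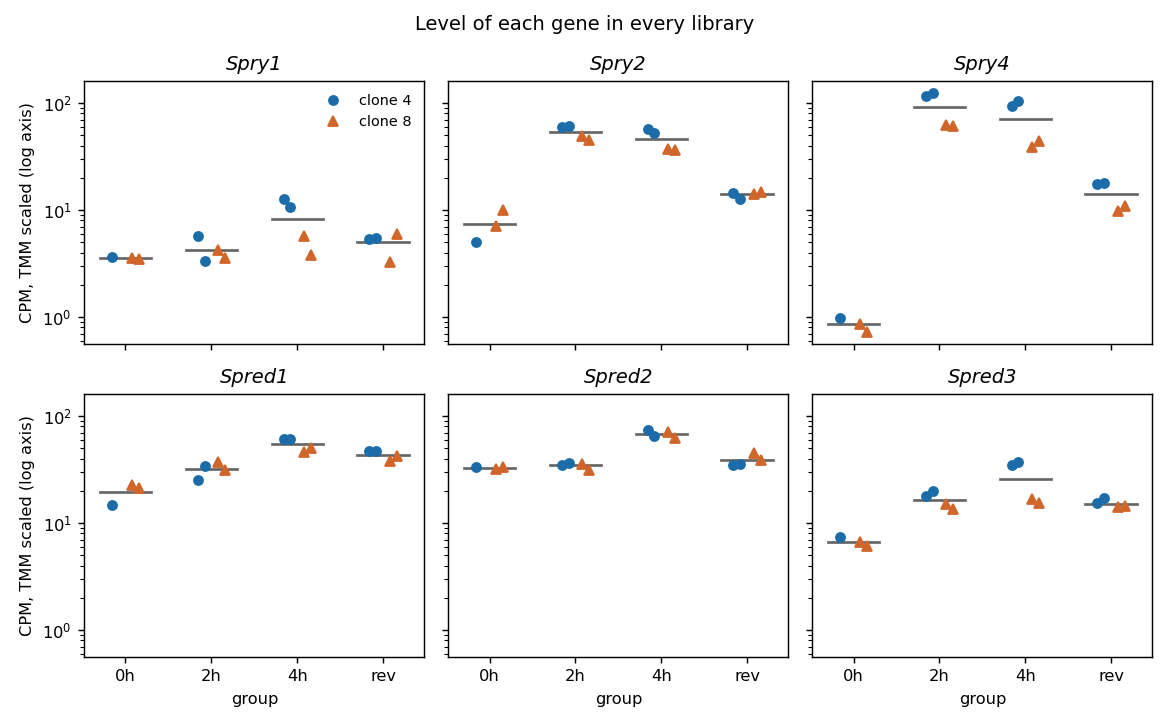
Level of each gene in every library, in TMM-scaled CPM on a log axis (vertical), by group (horizontal). Circles are clone 4, triangles clone 8 and grey bars group means over 3 libraries (0h) or 4 (2h, 4h, rev). Spry4 climbs from under 1 CPM to 60.9 to 124 CPM at 2h, while Spred2 stays near 33 CPM until 4h.

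The comparison of 2h with 0h asks which members changed early after 4OHT was added. The labels give no group kept for the same time without 4OHT. Induction, time in culture and any end of the PD17 exposure therefore cannot be told apart, here or in 4h vs 0h. Of the 6 members, 4 rose and none fell, beside 3.98% of all tested genes that rose, 2.46% that fell and 6.45% that were called in either direction. The same 4 had libraries that did not overlap between the groups, as did 19.1% of all genes. Spry4 rose by 6.51 on the log2 scale (SE 0.185, 91.3-fold, adjusted p = 9.67e-17), the fifth-largest rise of all genes tested, and Spry2 by 2.84 (SE 0.21, 7.14-fold, adjusted p = 8.22e-08). Spred3 rose by 1.21 (SE 0.175, adjusted p = 0.000125) and Spred1 by 0.72 (SE 0.155, adjusted p = 0.006). These values are from edgeR's quasi-likelihood test with clone as a covariate and Benjamini-Hochberg adjustment over all tested genes. Spry1 and Spred2 did not pass, with log2 differences of 0.17 (95% confidence interval -0.38 to 0.71) and 0.07 (-0.15 to 0.3). The median over the members was 0.96, beside 0.01 over all genes. The call of Spred1 ended without the only clone 4 library of 0h (0.50, adjusted p = 0.107 by the same edgeR test), with total count scaling (0.55, adjusted p = 0.472) and with libraries thinned to 1 depth (0.58, adjusted p = 0.116).

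By 4 h of induction all 6 members were higher than at 0h, by edgeR's quasi-likelihood test, beside 20.5% of all tested genes that were higher, 18.9% that were lower and 39.4% called in either direction. The rise was 6.10 for Spry4, 2.61 for Spry2, 1.81 for Spred3, 1.48 for Spred1, and 1.05 for both Spry1 (SE 0.282) and Spred2 (SE 0.111), on the log2 scale. The largest adjusted p among them was 0.00529, for Spry1. By clone, the rise of Spry1 was 1.68 in clone 4, which had 1 library at 0h, and 0.45 in clone 8. That difference between the clones was not tested. All 6 also had 4h libraries that lay wholly above 0h, and 36.3% of all genes had no overlap in 1 direction or the other. The member median was 1.65, beside 0.03 over all genes. The comparisons with 0h share its 3 libraries, and those with 4h share its 4, so their values are given side by side only. Spry1 lost its call without the clone 4 library of 0h (0.87, adjusted p = 0.0579), with thinned libraries (1.13, adjusted p = 0.0506) and with total count scaling (0.32, adjusted p = 0.459), and Spred2 with total count scaling (0.34, adjusted p = 0.308), all by edgeR.

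Between 2 and 4 h the members parted. Spry1, Spred1, Spred2 and Spred3 rose by edgeR's quasi-likelihood test, Spry4 fell and Spry2 did not pass, beside 38.9% of all tested genes that were called, 19.7% as higher and 19.2% as lower. Spred2, which was not called at 2h vs 0h, rose by 0.97 (SE 0.101, adjusted p = 1.98e-07), Spry1 by 0.89 (SE 0.256, adjusted p = 0.00865), Spred1 by 0.75 (SE 0.142, adjusted p = 0.000256) and Spred3 by 0.59 (SE 0.158, adjusted p = 0.00494). Within clones, Spry1 had 1.37 (SE 0.316) in clone 4 and 0.31 (SE 0.325) in clone 8, and Spred3 had 0.93 (SE 0.16) and 0.19 (SE 0.161), differences between clones that did not pass (adjusted p = 0.271 and 0.0955 by edgeR). Spry4 fell by 0.42 on the log2 scale (SE 0.121, adjusted p = 0.00927 by edgeR), and Spry2 had a difference of -0.23 (95% confidence interval -0.59 to 0.13, adjusted p = 0.315). Of the 6, Spred1 and Spred2 alone had 2h and 4h libraries that did not overlap, as did 26.1% of all genes. With total count scaling the rises of all 4 lost their calls by edgeR (Spry1 0.34, Spred1 0.23, Spred2 0.47 and Spred3 0.06, adjusted p from 0.138 to 0.879), the fall of Spry4 kept its call and Spry2 fell by 0.72 (adjusted p = 0.0248), as it did by 0.34 with no filter on low counts (adjusted p = 0.0413). Thinned to 1 depth, Spred1 and Spred2 alone passed, and without the clone term Spry4 did not (-0.38, adjusted p = 0.46).

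The addition of the MEK inhibitor, compared with 4h, asks which transcripts came down once the pathway was blocked. Spry2, Spry4, Spred2 and Spred3 fell by edgeR's quasi-likelihood test and none rose, beside 15.6% of all tested genes that fell and 30.8% called in either direction. Spry4 fell by 2.26 on the log2 scale (SE 0.128, adjusted p = 6.01e-11), Spry2 fell by 1.70 (SE 0.179, adjusted p = 1.25e-06), Spred2 fell by 0.83 (SE 0.101, adjusted p = 2.52e-06) and Spred3 fell by 0.70 (SE 0.159, adjusted p = 0.00193). Spry1 and Spred1 did not pass, with -0.63 (SE 0.255, adjusted p = 0.0638) and -0.31 (SE 0.141, adjusted p = 0.0978). By clone, Spry1 had -1.09 (SE 0.31) in clone 4 and -0.06 (SE 0.329) in clone 8. That difference between the clones did not pass (adjusted p = 0.298 by edgeR). Spred3 had -1.15 (SE 0.16) in clone 4 and -0.19 (SE 0.163) in clone 8, a difference taken up below. The member median was -0.76, beside 0.02 over all genes, and in 3 members the libraries of rev and 4h did not overlap, as in 22.8% of all genes. With total count scaling Spred2 (-0.46, adjusted p = 0.184) and Spred3 (-0.31, adjusted p = 0.422) lost their calls by edgeR. Spry1 passed without either 4h replicate clone8_2 (-0.84, adjusted p = 0.0166) or rev replicate clone8_2 (-0.83, adjusted p = 0.0257), and Spred1 passed without 4h replicate clone8_1 (-0.41, adjusted p = 0.0425) and in a fit of these groups alone (-0.31, adjusted p = 0.023).

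Set against 0h, rev libraries kept higher levels of 4 members: Spry4 by 3.84 (SE 0.171, adjusted p = 1.54e-12), Spred1 by 1.17 (SE 0.158, adjusted p = 4.7e-05), Spred3 by 1.10 (SE 0.175, adjusted p = 0.000238) and Spry2 by 0.91 (SE 0.197, adjusted p = 0.0054) on the log2 scale, by edgeR's quasi-likelihood test. Beside these, 6.49% of all tested genes were higher, 4.66% lower and 11.2% were called in either direction. Spry4 remained 14.3-fold above 0h. Some markers of other cells moved in the same comparison. The 4 neuroectoderm markers summed to 8.2 to 12 CPM in rev and 2.97 to 5.33 CPM at 0h, with 3 of the 3 tested called higher. Foxa2 of the primitive endoderm (2.37), Col1a1 of fibroblasts (1.83) and Eomes of the primitive streak (1.47) were called higher by edgeR. Each was 1 of 2 tested genes in its list, and the other tested gene of each list was not called. The part of these markers in the members' differences was not tested. Spred2 and Spry1 did not pass, at 0.22 (95% confidence interval 0 to 0.45, adjusted p = 0.196) and 0.42 (-0.13 to 0.97, adjusted p = 0.325). In 5 members, Spred2 among them, rev lay wholly above 0h, and 25.9% of all genes had no overlap in 1 direction or the other. Spry4 alone passed with total count scaling (Spry2 0.65, Spred1 0.86 and Spred3 0.77, adjusted p from 0.0556 to 0.198 by edgeR), Spry2 did not pass without the clone 4 library of 0h (0.59, adjusted p = 0.0571) and Spred3 not with thinned libraries (0.77, adjusted p = 0.132).

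Against 2h, the comparison that leaves out both 0h and 4h, rev libraries were lower in Spry4 (-2.67, SE 0.128, adjusted p = 7.67e-12) and Spry2 (-1.93, SE 0.178, adjusted p = 2.9e-06) by edgeR's quasi-likelihood test, beside 0.922% of all tested genes that were lower and 2.31% called in either direction. The other 4 members did not pass, and 3 members had no overlap between the groups, as did 7.22% of all genes. Spred1 had the largest difference of those, 0.44 (95% confidence interval 0.15 to 0.73, adjusted p = 0.116), with rev libraries that did not overlap those of 2h, and it passed when no filter on low counts was used (0.42, adjusted p = 0.03). Spred3 had -0.11 (-0.43 to 0.21) and Spred2 0.15 (-0.06 to 0.35), and Spry1 had 0.25 (-0.24 to 0.75). By group means Spred1 was highest at 4h and in rev, though its difference between rev and 2h was not called. Spry2 and Spry4 had their highest means at 2h and 4h.

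**Figure D3:**
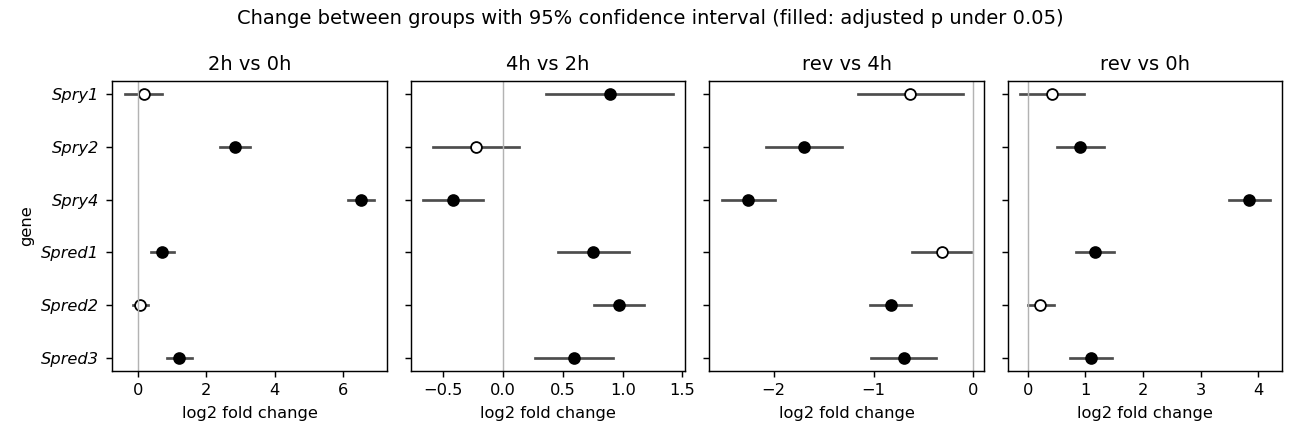
Log2 fold change of each gene (horizontal axis, a scale of its own in each panel) in 4 comparisons, with the 95% confidence interval from edgeR; filled points have an adjusted p under 0.05. In 4h vs 2h the Spred genes and Spry1 lie to the right of 0 and Spry4 to the left, and in rev vs 4h Spry4 has the lowest value, -2.26.

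Ratios of 2 members within a library do not depend on how libraries are scaled, so 4 ratios were compared between 2h, 4h and rev, 12 two-sided exact permutation tests in all. With 4 libraries against 4 the smallest p is 0.0286. The log2 ratio of Spry4 to Spry1 counts was 4.37 ± 0.59 at 2h, 3.09 ± 0.35 at 4h and 1.46 ± 0.39 in rev (SD, n = 4 each), with no overlap between groups. That of Spry1 to Spry2 was -3.67 ± 0.35, -2.58 ± 0.47 and -1.50 ± 0.40, also without overlap. Each of these 6 comparisons had an exact permutation p of 0.0286 and an adjusted p of 0.0571 over the 12, so none passed. With 6 of the 12 tests at the smallest p, none of them could pass, so this outcome decides nothing about the ratios. The ratio of Spry4 to Spry2, 0.70 ± 0.36, 0.50 ± 0.43 and -0.05 ± 0.51, overlapped between all 3 groups, and so did that of Spred1 to Spred2. These tests do not take clone into account. Within clone 4 the ratio of Spry4 to Spry2 was 0.99 and 1.02 in the 2h libraries, 0.71 and 0.99 in those of 4h and 0.26 and 0.51 under the inhibitor, and within clone 8 it was 0.34 and 0.44, 0.04 and 0.27, and -0.52 and -0.44. In each clone both rev libraries lay below those of 2h and 4h. At 0h, which was not tested, the ratio of Spry4 to Spry2 was -3.00 ± 0.66 (SD, n = 3).

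The clones differed in 2 members over the groups. Clone 8 had less Spry4 (-0.93, SE 0.0946, adjusted p = 4.92e-07) and less Spred3 (-0.51, SE 0.117, adjusted p = 0.00383) than clone 4 on the log2 scale by edgeR's quasi-likelihood test, beside 8.11% of all tested genes that were lower, 10.4% that were higher and 18.5% called in either direction. In Spry4 the ratio of clone 8 to clone 4 means was 0.821 before induction, 0.508 after 2 h, 0.413 after 4 h and 0.584 under the inhibitor. In Spred3 it was 0.863, 0.75, 0.45 and 0.871, so that 4h was where the clones were farthest apart in both genes. The other 4 members did not pass. Spred1 differed by 0.00 (95% confidence interval -0.21 to 0.21), Spred2 by 0.03 (-0.13 to 0.18) and Spry2 by -0.12 (-0.4 to 0.15). Spry1 differed by -0.43 (-0.81 to -0.04, adjusted p = 0.113 by edgeR). At 4h its ratio of clone means was 0.404, the lowest of the 6 members, from 10 to 43 counts per library. The Spred3 call ended with total count scaling (-0.53, adjusted p = 0.134 by edgeR).

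Whether the response itself differed was tested as a clone by time interaction in edgeR's quasi-likelihood test. Over the 3 steps together Spry2 passed (adjusted p = 0.0128), beside 3.18% of all genes, and Spred3 had an adjusted p of 0.0558, Spry4 0.0844 and Spred1 0.0857. From 0h to 2h Spry2 rose by 3.56 in clone 4, which had the lowest 0h value, and by 2.47 in clone 8, a difference of -1.10 (SE 0.246, adjusted p = 0.0927) beside 0.23% of genes called. From 4h to rev Spred3 fell by 1.15 in clone 4 and by 0.19 in clone 8, a difference of 0.95 (SE 0.228, adjusted p = 0.0262) beside 2.8% of genes called. None of the 6 passed from 2h to 4h, where 3.14% of all genes did and 3 members, Spry1, Spred1 and Spred3, had an unadjusted p under 0.05; DESeq2 called 0 members there too. Clone 4 had a single library at 0h, and the Spred3 difference did not pass with total count scaling (0.88, adjusted p = 1 by edgeR), thinned libraries (0.98, adjusted p = 0.538), no filter (0.94, adjusted p = 0.0629) or DESeq2 (0.98, adjusted p = 0.0662), or when any 1 library of 4h or rev was left out (0.88 to 1.03, adjusted p from 0.0519 to 0.126), except 4h replicate clone4_1. The Spry2 call over the 3 steps ended with total count scaling (adjusted p = 0.814 by edgeR), with thinned libraries (0.166) and without 0h replicate clone8_2 (0.0611). Spred3 passed over the 3 steps with DESeq2 size factors (0.0463), and Spred1 passed without 2h replicate clone4_2 (0.026) or clone8_2 (0.0453).

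**Figure D4:**
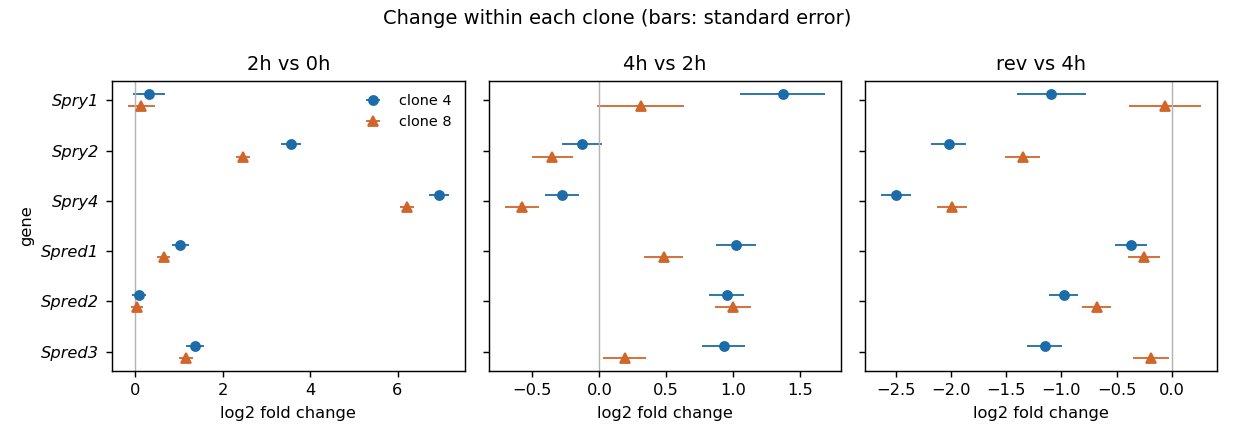
Log2 fold change of each gene within clone 4 (circles) and clone 8 (triangles) for 3 steps, from an edgeR fit with a mean for each group and clone; bars are standard errors and each panel has its own horizontal scale. Spred3 in rev vs 4h is at -1.15 in clone 4 and -0.19 in clone 8, and Spred2 in 4h vs 2h is at 0.95 and 1.

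The rest of the feedback machinery was read from a list of 13 phosphatases and inhibitors outside the family, all of which passed the filter. Counts of the lists stand beside 6.45% of all tested genes called in 2h vs 0h, 39.4% in 4h vs 0h, 38.9% in 4h vs 2h and 30.8% in rev vs 4h. At 2h vs 0h 4 rose, 1 fell and 8 did not pass, with a median of 0.11. Dusp6, the phosphatase that removes the activating phosphates of ERK, rose by 5.37 (SE 0.4, adjusted p = 1.83e-05 by edgeR), the nuclear phosphatase Dusp2 by 2.86 and the ERK phosphatase Dusp5 by 2.42. At 4h vs 0h 7 rose and 1 fell, led by Dusp6 (3.88), Dusp5 (2.65) and Dusp4 (1.99). In rev vs 4h 4 fell and none rose, among them Dusp6 (-1.44, SE 0.299, adjusted p = 0.00393 by edgeR), the FGF receptor inhibitor Il17rd (-1.18) and the EGF receptor inhibitor Lrig1 (-0.57). Dusp6 had 152 ± 28.3 CPM at 2h and 57.4 ± 31.2 at 4h (SD, n = 4).

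Of 18 genes that encode the cascade itself 1 rose at 2h vs 0h, the RAF kinase gene Braf by 0.51 (adjusted p = 0.0476 by edgeR), and none fell, a share near the 6.45% of all genes. At 4h vs 0h 8 rose and 5 fell, beside 39.4% of all genes called, with a median of 0.33, including a rise of 1.01 in Gab1, an adaptor of receptor signalling, and of 0.87 in Sos2, an exchange factor for RAS, and a fall of 0.87 in Hras. In rev vs 4h 3 rose and 5 fell, and Gab1 (-0.90), the ERK gene Mapk3 (-0.77) and the scaffold gene Ksr1 (-1.29) were lower. Of 11 partners of Sprouty and Spred proteins 10 passed the filter, and 0 were called at 2h vs 0h by edgeR's quasi-likelihood test, where 2 had an unadjusted p under 0.05 and the median was 0.08. At 4h vs 0h 3 of these 10 rose and 1 fell, a share near the 39.4% of all genes called. Nf1, which encodes the neurofibromin that Spred proteins carry to the membrane, rose by 0.80 (SE 0.127, adjusted p = 4.77e-05 by edgeR) and the adaptor gene Grb2 by 0.32 on the log2 scale. In rev vs 4h 2 of the 10 rose and 2 fell, beside 30.8% of all genes called. Nf1 (-0.45) and the kinase gene Mknk1 (-0.83) were lower and Siah2, a ubiquitin ligase gene, was higher (0.80).

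Of 9 FGF ligand and receptor genes 8 passed the filter. Fgf8 alone was called at 2h vs 0h, with a rise of 1.41 (SE 0.303, adjusted p = 0.00597 by edgeR), and at 4h vs 0h Fgf8 was higher (1.90) and the epiblast ligand gene Fgf5 lower (-1.44), 2 of 8 beside 39.4% of all genes called. In rev vs 4h 1 rose, Fgf5 (0.93), and 3 fell, among them Fgf15 (-1.23) and Fgf4 (-0.73). Of 11 ERK-responsive transcription factor genes 8 rose and 1 fell at 2h vs 0h, with a median of 3.93. Egr1 went from 1.97 ± 1.18 CPM at 0h (SD, n = 3) to 599 ± 267 at 2h (SD, n = 4), a rise of 7.86 (adjusted p = 0.000136 by edgeR), and Fos rose by 5.61. Egr3, with 0 or 1 counts per 0h library, reached 98 ± 51.3 CPM. At 4h vs 0h 9 of the 11 were higher, with Myc at 3.96, and at 4h vs 2h 6 of the 11 fell and 2 rose. In rev vs 4h 1 of them, Egr2, rose (1.05) and 3 fell, among them the ETS factor genes Etv5 (-0.67) and Etv1 (-1.18). Spry3, the Sprouty gene outside the 6, had group means of 0.413 to 1.4 CPM and was not called in any of the 6 comparisons of groups by edgeR, with an unadjusted p under 0.05 where 4h was set against 0h or against 2h.

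The genes whose pattern was most like each member were taken as the 3 with the highest Pearson r of log2 CPM over the 15 libraries, among 12291 genes with a mean of at least 1 CPM. These libraries share their groups, clones and depths, so r is a description. For Spry4 they were Dusp6 (0.961), Epha2 (0.949) and Myc (0.947), and for Spry2 Epha2 (0.954), Dusp6 (0.948) and Spry4 itself (0.943). Spred3 was most like Phlda1 (0.954), Usp27x (0.953) and Arhgef12 (0.949), and Spred1 most like Myof (0.945), Onecut2 (0.941) and Slc12a2 (0.939). Spred2 was most like Sulf1 (0.965), Tle4 (0.961) and Eif4ebp1 (0.954), and Spry1 most like Fam167a (0.948), Inafm2 (0.925) and Atp11a (0.923). Between members, r was 0.871 for Spry4 and Spred3 and 0.825 for Spred1 and Spred3, and its lowest value was 0.414, for Spry1 and Spry2.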

How the data were processed

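RNA was measured in 15 libraries after ribosomal RNA depletion, from 1 µg of RNA each, per the labels' protocols. The deposited values are raw counts per Ensembl gene. The submitters' processing notes list bcl2fastq 2.19.1, STAR 2.5.3a and mm10, without their roles. The counting tool, annotation and strand setting are not given in the sources used here. Of 52636 identifiers, 52489 were matched to GENCODE M21 for names, positions and merged exon lengths.

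From the counts, genes were kept by filterByExpr on group (minimum count 10, minimum total 15), TMM-scaled and fitted over all 15 libraries with group and clone in edgeR 4.0.16 (R 4.3.3; robust quasi-likelihood fit), with an adjusted p under 0.05 as the threshold. A second fit had a mean for each group and clone. CPM are TMM-scaled; log2 CPM used a prior count of 2 and ratios a pseudocount of 0.5. The functions were tested on simulated data.

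Members and gene lists were chosen with earlier results of these data known. Of each list, the text names per comparison (2h and 4h against 0h, rev against 4h) the 3 called genes with the largest absolute change and a mean of at least 1 CPM, and beside this Egr3 by its level and, chosen after their values were seen, the markers Foxa2, Col1a1 and Eomes; 1 listed gene is not reported here. Alternatives were other scalings, no filter, DESeq2 1.42.0, other designs, thinned libraries and each library left out.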

Additional observations from a re-analysis of the deposited data

Results flagged for a closer look

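In 2 members a test of the difference in response between the clones passed, and both calls depended on the processing. The change of Spred3 from 4h to rev was 0.95 higher on the log2 scale in clone 8 than in clone 4 (SE 0.228, adjusted p = 0.0262 in the clone by time interaction of edgeR), with both clone 4 libraries of rev below both of 4h and the clone 8 libraries of the 2 groups at 14 and 14.3 against 16.8 and 15.5 CPM. That call ended with total count scaling, no filter, thinned libraries, DESeq2 and when any library of 4h or rev other than 4h replicate clone4_1 was left out. Spry2 passed the joint interaction test over the 3 steps, with an adjusted p of 0.0128 in edgeR, and its 0h level was 5.07 CPM in the single clone 4 library against 7.09 and 9.93 CPM in clone 8. It did not pass with total count scaling, with thinned libraries or without 0h replicate clone8_2. No library stood out by Dixon's test in any of the 6 members at 2h, 4h or rev; groups of 3, such as 0h, were not tested.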

How the results depend on the processing

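Over the 6 comparisons of groups, the clone difference and the clone by time tests, 1242 member values were recomputed under the alternatives: 1160 kept their direction and their side of the threshold, 37 kept the direction but lost the call and 11 gained one. The sign turned in 34, none of them called either way. Total count scaling turned the 4 group differences given above (-0.02, -0.13, 0.09 and -0.12), Spred1 (-0.03) and Spred2 (-0.03) between clones, the clone differences in 2h vs 0h of Spry1 (0.51), Spred1 (0.26), Spred2 (0.63) and Spred3 (0.45), and that of Spred2 from 2h to 4h (-0.55). Thinning turned Spred1 (-0.01) and Spred2 (-0.10) between clones, the clone differences in 2h vs 0h of Spry1 (0.65), Spry4 (2.27) and Spred2 (0.32), and those of Spred2 from 2h to 4h (-0.13) and in rev vs 4h (-0.11). DESeq2 size factors turned Spred1 between clones (0 after rounding) and no filter turned the clone difference of Spred2 in 2h vs 0h (0.01). With 1 library left out, values of both signs were seen for Spry1 in 2h vs 0h (-0.01 to 0.30), Spred1 (-0.12 to 0.05) and Spred2 (-0.03 to 0.06) between clones, the clone differences in 2h vs 0h of Spry1 (-0.51 to 0.27) and Spred2 (-0.15 to 0.05), and that of Spred2 from 2h to 4h (-0.06 to 0.15). The number of members called moved by over 1.5 times as follows. With total count scaling it was 2 in 4h vs 2h (5 as reported), 2 in rev vs 4h (4), 1 in rev vs 0h (4), 1 between clones (2), and 0 in the clone differences of rev vs 4h and over time (1 each). With libraries thinned to 1548182 counts it was 2 in 4h vs 2h and 0 in both of those clone differences. The clone difference of rev vs 4h called 0 with no filter and with DESeq2, and that over time 2 with DESeq2 size factors. Leaving out 1 library gave 0 to 1 members for the clone difference in 2h vs 0h, 0 to 1 in rev vs 4h and 0 to 2 over time; a clone left with 1 library in a group is there assumed to vary like the others. Thinned libraries hold fewer counts; otherwise the cause was not tested.

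Shared replicate numbers were not taken as pairs in the main fit. The differences between replicate numbers had r of -0.194 to 0.261 over 9 pairs within clones, 1 above 0.1. A low r between differences of single libraries cannot show that the samples were unpaired. With the replicate block 4 members were called at 2h and 6 at 4h against 0h, 5 from 2h to 4h, and for rev 4, 4 and 2 against 4h, 0h and 2h. These are the counts without it, and all genes called in 2h vs 0h went from 867 to 653.

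Counts over all genes moved more. In 2h vs 0h (867) they were 266 with total count scaling, 1499 without the most abundant and mitochondrial genes, 1305 with no filter, 427 with no clone term, 262 thinned, 1327 with edgeR's earlier quasi-likelihood method (chosen after seeing the data) and 308 to 1068 with 1 library left out. Thinning gave 2677 in 4h vs 0h (5300), 2596 in 4h vs 2h (5237) and 1903 in rev vs 4h (4140). In rev vs 0h (1500) they were 759 with total count scaling, 2282 without abundant genes, 3003 with these groups only, 793 with no clone term, 467 thinned and 501 to 1326 with 1 library left out. In rev vs 2h (311) they were 119, 502, 569, 96 and 79 in that order of settings, 575 with no filter, and 161 to 278 with 1 library left out. Between clones (2492) they were 761 with total count scaling and 870 thinned. Of the clone differences, total count scaling and thinning gave 2 and 5 in 2h vs 0h (31 as reported), 147 and 107 from 2h to 4h (422), 44 and 83 in rev vs 4h (377), and 113 and 145 over time (428); DESeq2 gave 240 in 4h vs 2h and 210 in rev vs 4h, and no filter 56 in 2h vs 0h and 668 over time. DESeq2 was not run for the test over time.

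The 12 ratio tests passed 0 times with either pseudocount, and with 1 library left out the smallest p they allow is 0.0571. Without division by length Spry4 led at 2h and 4h and Spred1 in rev. By Spearman's rho the genes most like a member shared 1 of 3 names with those above for Spry2 (Spry4) and Spry4 (Dusp6) and 0 for the other members. The 4h libraries set the precision: 3 counts there stand for 0.683 to 1.83 CPM, against 0.161 to 0.423 CPM elsewhere.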
